A study of Mus musculus with 24 samples.

Results

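The genes described here are the chaperones and disulfide folding enzymes of the endoplasmic reticulum (ER), 40 of the 24421 genes in the count table. They were taken by gene symbol from a written list of lumenal chaperones, protein disulfide isomerases, prolyl isomerases and thiol oxidases, and the rule uses no measured value, although the list was drawn up with earlier results of these data known. All 40 symbols were in the table, and all 40 passed the filter on low counts. The 24 libraries hold polyadenylated RNA of the mouse insulinoma line MIN6, whose cells make and release insulin. Cells were transfected with a plasmid for EIF2A fused to GFP (EIF2A-GFP, here EIF2A) or with one for GFP alone. In each construct, 1 µM thapsigargin acted for 1 or 3 h and DMSO alone stands for 0 h, which makes 6 groups of 4 libraries. EIF2A is a translation initiation factor, distinct from the alpha subunit of eIF2. All cells were grown in medium with 22.2 mM glucose, and the labels give neither the promoter of the plasmids nor the share of cells that took them up.

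Secreted proteins enter the ER unfolded. HSP70 and HSP90 chaperones hold them there, the calnexin cycle tests their glycans, and disulfide isomerases, recharged by ERO1 oxidases, join their cysteines. Prolyl isomerases turn the bonds before proline. Beta cells put this machinery to work on proinsulin, a small protein held together by disulfide bonds. Thapsigargin blocks the calcium pump of the ER. Calcium-binding chaperones then lose their ligand, proteins misfold, and the sensors ATF6, IRE1 and PERK start the unfolded protein response, whose targets include many of the genes named here. In RNA from whole cultures, less RNA per cell cannot be told apart from fewer cells that hold it.

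Libraries held 10.52 to 22.07 M (mega) counts for EIF2A and 16.73 to 22.22 M for GFP. Reads outside annotated genes were 11.13 to 17.88% of counted reads in EIF2A libraries and 10.73 to 12.99% in GFP libraries. The plasmid gene goes against the labels in replicate 1. Eif2a differed between the library labelled EIF2A and the one labelled GFP by -1.75, -1.90 and -1.78 (log2, at 0, 1 and 3 h) in replicate 1, against 0.77 to 1.13 in replicates 2 to 4. Results are therefore given as labelled and without replicate 1 in any group. The 47 calls made for members as labelled, over 11 contrasts, all remained without it. All 12 beta cell markers looked for were present, with Ins2 at 18397 to 66800 CPM (counts per M of the library total scaled by its TMM factor). Their summed level was 56051 to 121974 CPM in EIF2A libraries and 44347 to 106617 CPM in GFP libraries. Markers of acinar cells summed to at most 1.15 CPM, with Prss2 at 0 in every library, and those of delta, PP and epsilon cells to at most 2.49 CPM. Markers of alpha cells (625 to 2470 CPM), duct (314 to 1276 CPM) and macrophages (9.55 to 97.4 CPM) were detected. Among the alpha markers, Gcg took 138 to 921 CPM and Ttr 484 to 1561 CPM. The mean was under 1 CPM for 2 of the 5 alpha, 2 of the 6 duct and 4 of the 6 macrophage markers. The part of these markers in the results below was not tested. Exons of other annotated genes overlap exons of 16 of the 40 members, 14 of them on the opposite strand, and how the counting treated such reads is not stated in the labels.

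The DNA elements through which the unfolded protein response reaches such genes were looked up in the promoters of the members. RefSeq promoter windows on GRCm38.p6, which run from 250 bases before to 50 bases after an annotated start, were found for 33 of the 40 members. Hyou1, Sil1, Manf, Erp29, Tmx3, Ppic and Fkbp10 had none. Both strands were searched for the ER stress response element (ERSE, which is CCAAT, 9 bases of any kind and CCACG), for ERSE-II (ATTGG, 1 base of any kind and CCACG), for the core of the unfolded protein response element (UPRE, TGACGTG) and for the C/EBP-ATF response element (CARE, TGATGNAA). ERSE and ERSE-II share the letters CCACG, and within a window no match overlapped another. ERSE was present in 8 of the 33 members against 0.137% of the 27025 genes with a window, and in 0.119% of all 32851 windows. ERSE-II was present in 1 member, Dnajb11, against 0.0444% of genes and 0.0365% of all windows. The UPRE core was found in Hspa5, Txndc5, Txndc11 and Fkbp11, against 2.22% of genes and 2.01% of all windows. CARE was found in Cdnf and Txndc5, against 4.51% of genes and 3.97% of all windows. The matches to ERSE and ERSE-II are printed because they mark the members that carry the classical element of this response, each 5′ to 3′ on the strand of the motif, with the fixed letters in capitals:
Hspa5, chr2:34772025-34772043, plus strand: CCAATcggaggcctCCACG
Dnajc3, chr14:118937827-118937845, plus strand: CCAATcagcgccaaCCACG
Hsp90b1 (element farther from the start), chr10:86705638-86705656, minus strand: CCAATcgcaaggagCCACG
Hsp90b1 (element nearer the start), chr10:86705533-86705551, plus strand: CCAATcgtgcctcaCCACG
Canx, chr11:50325800-50325818, minus strand: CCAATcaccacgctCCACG
Calr, chr8:84847075-84847093, plus strand: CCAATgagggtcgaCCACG
Pdia6, chr12:17266491-17266509, plus strand: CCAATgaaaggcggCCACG
Creld2, chr15:88819520-88819538, minus strand: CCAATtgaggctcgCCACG
Ero1lb, chr13:12565682-12565700, minus strand: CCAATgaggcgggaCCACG
Dnajb11, chr16:22857852-22857862, plus strand: ATTGGcCCACG

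Positions count from the annotated start as 0. In Hspa5 the element ran from -65 to -47, in Pdia6 from -98 to -80 and in Dnajc3 from -105 to -87. Hsp90b1 held a pair of them, at -212 to -194 and, in the opposite orientation, at -107 to -89. In Ero1lb it lay farther out, at -201 to -183 and in the opposite orientation. The ERSE-II of Dnajb11 lay downstream of the start, at 7 to 17. A match describes letters in this window and not binding. The 250 bases before the start are printed in the direction of transcription for Hspa5 and Hsp90b1, the lead chaperones, and for Fkbp7 and Ppib, the members with the largest called rise and fall at 3 h in GFP cells. Capitals mark the fixed letters of ERSE:
Hspa5, chr2:34771840-34772089, plus strand: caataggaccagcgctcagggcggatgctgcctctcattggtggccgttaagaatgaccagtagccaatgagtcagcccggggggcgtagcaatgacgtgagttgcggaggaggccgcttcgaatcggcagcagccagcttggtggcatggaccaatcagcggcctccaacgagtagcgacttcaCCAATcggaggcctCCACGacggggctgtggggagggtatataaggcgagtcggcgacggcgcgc
Hsp90b1, chr10:86705445-86705694, minus strand: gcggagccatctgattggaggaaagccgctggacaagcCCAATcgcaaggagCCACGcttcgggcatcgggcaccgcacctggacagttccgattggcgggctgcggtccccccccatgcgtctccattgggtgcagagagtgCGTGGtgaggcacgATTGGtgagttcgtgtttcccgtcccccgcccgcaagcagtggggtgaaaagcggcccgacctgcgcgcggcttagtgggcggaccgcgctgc
Fkbp7, chr2:76673099-76673348, minus strand: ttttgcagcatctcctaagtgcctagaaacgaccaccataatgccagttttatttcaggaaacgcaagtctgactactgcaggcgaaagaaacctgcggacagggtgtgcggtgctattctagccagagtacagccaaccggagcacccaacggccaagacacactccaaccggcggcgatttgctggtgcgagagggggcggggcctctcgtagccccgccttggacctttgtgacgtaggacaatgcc
Ppib, chr9:66059919-66060168, plus strand: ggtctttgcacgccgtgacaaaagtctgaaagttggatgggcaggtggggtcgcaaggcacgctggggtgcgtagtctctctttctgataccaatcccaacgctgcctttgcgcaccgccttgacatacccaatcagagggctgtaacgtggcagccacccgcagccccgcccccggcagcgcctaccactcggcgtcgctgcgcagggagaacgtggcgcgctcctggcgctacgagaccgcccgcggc

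Neither Fkbp7 nor Ppib held any of the 4 motifs in its window. The 9 members with ERSE or ERSE-II had a positive log2 fold change at 1 h over 0 h in both constructs, with medians of 0.18 for EIF2A (0.01 to 0.61) and 0.23 for GFP (0.09 to 0.69). Of the 24 members with a window and neither element, 15 had a positive value in each construct, with medians of 0.12 for EIF2A and 0.06 for GFP. At 3 h over 0 h, 5 of the 9 were positive for EIF2A (median 0.03) and 6 of the 9 for GFP (median 0.06). These are descriptions of the same fits as below, and the split was made after those values were known. Of the 9, the calls at 3 h were Hsp90b1, which rose, and Ero1lb, which fell, so members with the element moved both ways.

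**Figure D1:**
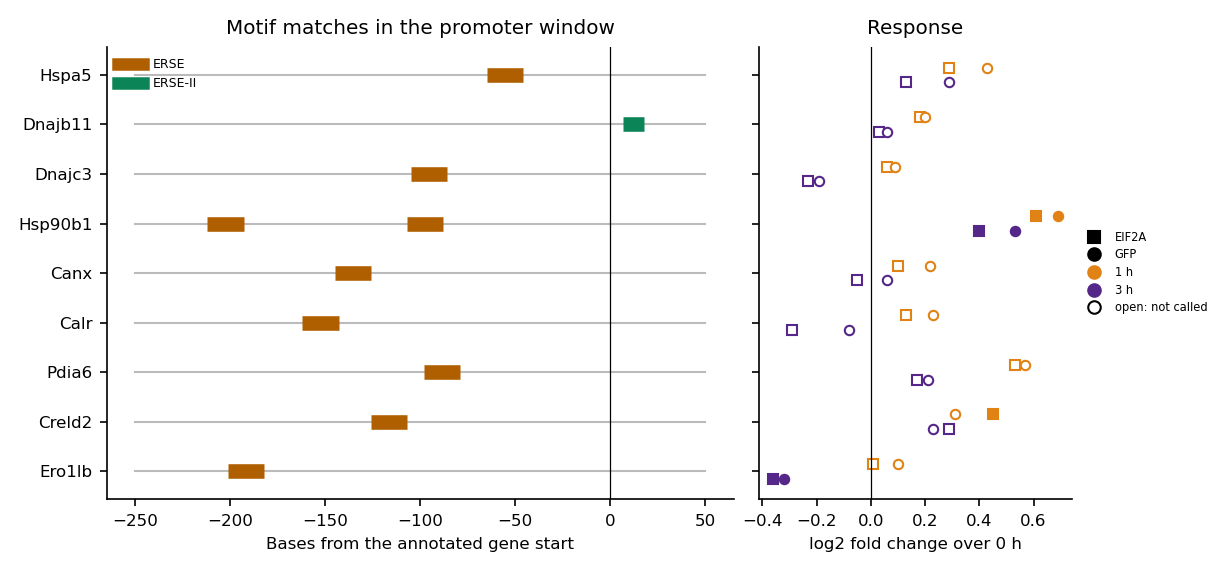
Left, position of ERSE and ERSE-II matches in the promoter window of 9 members, in bases from the annotated start. Right, log2 fold change over 0 h of the same members at 1 h (orange) and 3 h (purple) in EIF2A (squares) and GFP (circles); filled symbols have an adjusted p under 0.05, and all 1 h values are above 0.

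Levels can be compared between genes only per length, so CPM was divided by the length of the principal transcript in kilobases. By this scale Calr, Hsp90b1, P4hb, Ero1lb and Fkbp2 took the first 5 ranks in vehicle-treated cells of both constructs. Calr, the lumenal lectin and calcium store, was highest at 792 ± 42.3 CPM per kb in EIF2A cells and 600 ± 58.9 in GFP cells (mean ± SD, n = 4 each). Ero1lb, the oxidase of secretory cells, had 485 ± 19.6 CPM per kb in EIF2A cells and 486 ± 9.87 in GFP cells. P4hb, the archetypal disulfide isomerase, had 495 ± 115 CPM per kb in EIF2A cells and 466 ± 4.38 in GFP cells. Hsp90b1, the HSP90 of the ER, had 515 ± 31.8 CPM per kb in EIF2A cells and 443 ± 26.5 in GFP cells. In EIF2A cells the means of Hsp90b1, P4hb and Ero1lb at ranks 2 to 4 differed by less than the larger SD of each pair, as did those of Ppib, Hspa5 and Pdia6 at ranks 6 to 8. In GFP cells Ero1lb and P4hb differed by more than either SD, and P4hb and Hsp90b1 by less than the larger SD. Hspa5, which encodes BiP, took rank 7 in both constructs, at 324 ± 56.9 CPM per kb in EIF2A cells and 303 ± 44.3 in GFP cells. The lowest were Uggt2, Cdnf and Fkbp10, at 0.79, 0.447 and 0.312 CPM per kb in EIF2A cells and 1.35, 0.382 and 0.28 in GFP cells. Together the 40 members took 1.19 to 1.76% of all counts in EIF2A libraries and 1.22 to 1.67% in GFP libraries.

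**Figure D2:**
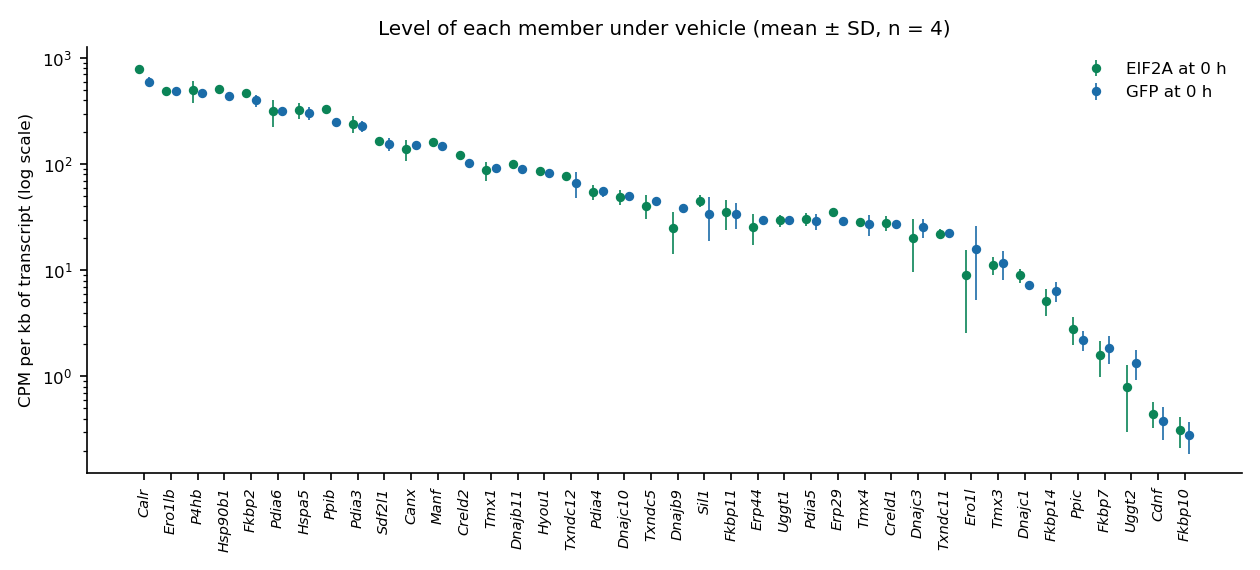
Level of each of the 40 members in vehicle-treated cells, as CPM per kb of transcript on a log axis, for EIF2A (green) and GFP (blue). Points are means and bars SD of 4 libraries; members run from Calr at 792 (EIF2A) and 600 (GFP) CPM per kb down to Fkbp10 at 0.312 and 0.28.

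Paralogs of the same role differed in level. Per length, Ero1l, the widely expressed oxidase, stood at 0.0116 to 0.0368 times Ero1lb in the 4 EIF2A libraries at 0 h and at 0.0213 to 0.0662 times in the 4 GFP libraries. Uggt1, the glucosyltransferase that returns misfolded glycoproteins to calnexin, was 23 to 60.5 times Uggt2 in EIF2A libraries and 19.4 to 35 times in GFP libraries. Manf was 253 to 512 times its relative Cdnf in EIF2A libraries and 234 to 546 times in GFP libraries. Ppib, cyclophilin B, was 79.5 to 145 times Ppic in EIF2A libraries and 91.4 to 148 times in GFP libraries. Tmx1 was 2.79 to 3.63 times Tmx4 in EIF2A libraries and 2.62 to 3.89 times in GFP libraries, and Creld1 0.21 to 0.283 times Creld2 in EIF2A libraries and 0.238 to 0.303 times in GFP libraries. The ratio of Dnajb9 to Dnajb11 was 0.19 to 0.36 in EIF2A libraries and 0.413 to 0.443 in GFP libraries. With replicate 1 included, this was the one pair of the 7 whose ranges did not overlap between constructs. Without replicate 1, the ranges of Ero1l to Ero1lb, Uggt1 to Uggt2, Tmx1 to Tmx4 and Creld1 to Creld2 did not overlap either. In that setting 31.9% of all genes were higher and 32.9% lower in EIF2A cells at 0 h. Other gene pairs were not counted, so nothing is read from this about the paralogs.

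Thapsigargin raised a small set of members within 1 h. By 3 h more members had fallen than risen over all 24 libraries with TMM scaling. With library totals as the scale, and in GFP cells without replicate 1, more were called higher than lower. Differences are log2 fold changes ± standard error (SE) from edgeR's quasi-likelihood test over all 24 libraries, adjusted by Benjamini-Hochberg over the 13761 genes tested, and "rose" or "fell" stands for an adjusted p under 0.05. At 1 h over 0 h, 5 of 40 members rose and 0 fell in EIF2A cells, where 6.55% of all genes rose and 3.94% fell. In GFP cells 4 of 40 rose and 0 fell, where 5.78% of all genes rose and 2.39% fell. The 5 were Hsp90b1, Pdia3, Pdia4, Pdia5 and Creld2, and the 4 were these without Creld2. At 3 h over 0 h, 6 rose and 9 fell in EIF2A cells, with 19.6% of all genes higher and 16.6% lower. In GFP cells 4 rose and 6 fell, with 18.4% of all genes higher and 14.6% lower. The median member stood at 0.13 at 1 h and -0.15 at 3 h in EIF2A cells, and at 0.11 and -0.11 in GFP cells, where the median of all genes was between -0.02 and 0.00. The counts at 3 h are near the background, and those at 1 h rest on 5 and 4 genes.

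Scaling moved the balance at 3 h. With library totals in place of TMM, 8 members rose and 3 fell in EIF2A cells (27.7% and 9.7% of all genes), and 6 rose and 3 fell in GFP cells (24.4% and 9.77% of all genes). That scaling also moved the median of all genes to 0.15 in EIF2A cells and 0.12 in GFP cells, and the members' median to 0.00 and 0.01, so the median member lay below the median gene under both scalings. With RLE size factors, 4 rose and 11 fell in EIF2A cells (18.4% and 17.5% of all genes). Of the 47 calls over 11 contrasts, 32 remained with library totals and 45 with RLE, and none of them changed sign.

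Without replicate 1 more members and more genes in all were called. At 1 h over 0 h, 20 members were higher and 6 lower in EIF2A cells (20.2% and 21.8% of all genes), and 17 higher and 2 lower in GFP cells (21.2% and 18.2% of all genes). At 3 h over 0 h, 10 were higher and 16 lower in EIF2A cells (31.2% and 31.4% of all genes), and 13 higher and 11 lower in GFP cells (32.2% and 30.8% of all genes). Libraries of a construct that share a replicate number deviated from their group means together (r 0.51 to 0.933), but not clearly so without replicate 1 (-0.026 to 0.312). With a replicate block, 22 members were called at 1 h in EIF2A cells and 20 in GFP cells, where 45.3% and 44.6% of all genes were called. At 3 h the block called 30 members in EIF2A cells and 27 in GFP cells, where 66.2% and 67.1% of all genes were called.

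**Figure D3:**
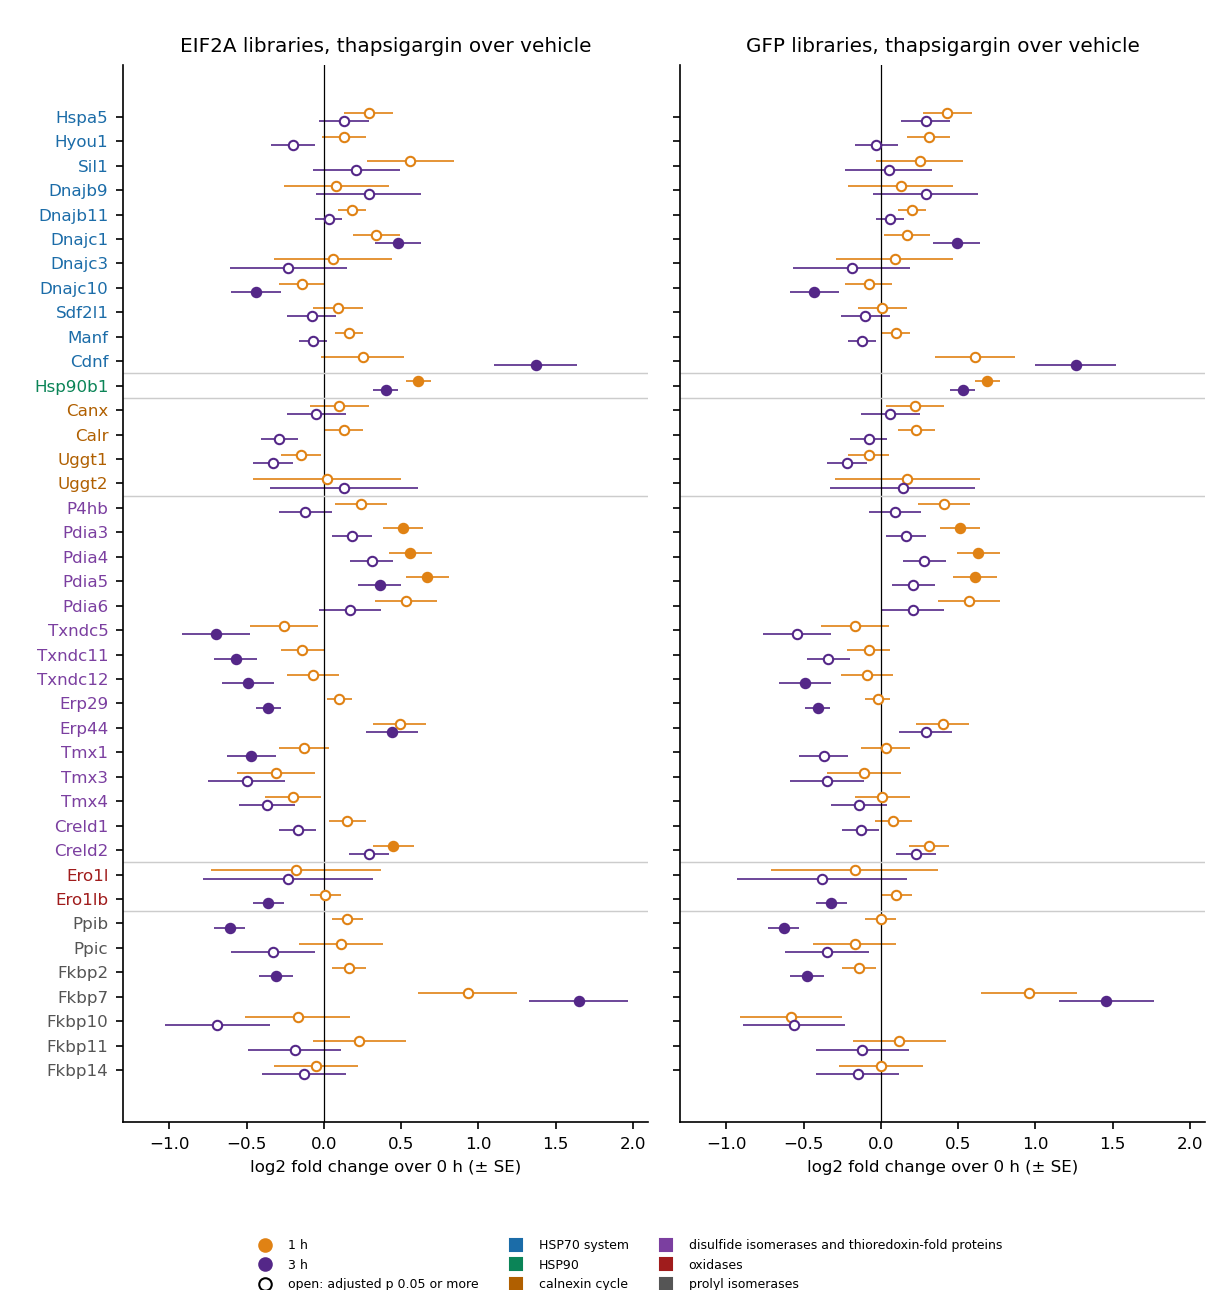
Log2 fold change over 0 h (± SE) of the 40 members, grouped by role, at 1 h (orange) and 3 h (purple), in EIF2A cells (left) and GFP cells (right), from all 24 libraries with TMM scaling. Filled points have an adjusted p under 0.05; Hsp90b1 is filled at both times in both constructs, and Fkbp7 reaches 1.65 (EIF2A) and 1.46 (GFP) at 3 h.

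Hspa5 encodes BiP, the HSP70 of the ER lumen and the textbook marker of this response. In EIF2A libraries, replicates 1 to 4 in order here and throughout, it had 1490, 1137, 1123 and 1007 CPM at 0 h, 1741, 1394, 1355 and 1324 CPM at 1 h and 1934, 1144, 1102 and 1037 CPM at 3 h. In GFP libraries it had 1354, 1057, 1015 and 1022 CPM at 0 h, 1516, 1491, 1491 and 1515 CPM at 1 h and 1506, 1302, 1323 and 1313 CPM at 3 h. Replicate 1 was the highest library of its group at all 3 times in both constructs, though in GFP cells at 1 h only by 1516 against 1515 CPM. In GFP cells all 4 libraries at 1 h lay above all 4 at 0 h. As labelled, the changes at 1 h were 0.29 ± 0.16 (adjusted p = 0.3) in EIF2A cells and 0.43 ± 0.16 (adjusted p = 0.113) in GFP cells, and neither was called. Without replicate 1, the change at 1 h was 0.32 ± 0.05 (adjusted p = 4.88e-05) in EIF2A cells and 0.54 ± 0.05 (adjusted p = 1.28e-07) in GFP cells. At 3 h it was 0.01 ± 0.05 (adjusted p = 0.928) in EIF2A cells and 0.35 ± 0.05 (adjusted p = 6.66e-06) in GFP cells. Between 1 and 3 h Hspa5 then changed by -0.31 ± 0.05 (adjusted p = 4.81e-05) in EIF2A cells and -0.19 ± 0.05 (adjusted p = 0.00469) in GFP cells, so it stood lower at 3 h than at 1 h in both constructs.

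Of the 11 members of the HSP70 system, 0 were called at 1 h in either construct as labelled, while 10 of 11 had a positive value in each. At an unadjusted p under 0.05 there was 1 in EIF2A cells and 4 in GFP cells, and DESeq2 called 0 in each. At 3 h, 2 rose and 1 fell in each construct, or 27.3% of the 11, where 36.2% (EIF2A) and 33% (GFP) of all genes were called. Those that rose were Dnajc1 and Cdnf. Dnajc1 is a J-domain partner of BiP anchored in the ER membrane. In EIF2A libraries Dnajc1 had 39.4, 55.3, 54.8 and 48.9 CPM at 0 h, 43.4, 64.2, 78.8 and 64.1 CPM at 1 h and 52, 75.2, 76.7 and 71.8 CPM at 3 h. In GFP libraries Dnajc1 had 39.2, 41, 37.9 and 40.3 CPM at 0 h, 42.2, 48.9, 44.3 and 42.7 CPM at 1 h and 46.8, 59.1, 60 and 56.4 CPM at 3 h. The libraries labelled EIF2A replicate 1 lay below the rest of their group at every time, and in GFP cells the 3 h and 0 h libraries did not overlap. It rose at 3 h by 0.48 ± 0.15 (adjusted p = 0.0152, and 0.49 ± 0.08 without replicate 1) in EIF2A cells and by 0.49 ± 0.15 (adjusted p = 0.0138, and 0.56 ± 0.08 without replicate 1) in GFP cells.

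Cdnf encodes a relative of MANF, a BiP-binding trophic factor, and was among the least abundant members, with 9 to 71 counts per library. In EIF2A libraries Cdnf had 1.36, 1.29, 1.81 and 0.928 CPM at 0 h, 1.34, 2.17, 1.75 and 1.2 CPM at 1 h and 2.17, 4.21, 3.39 and 4.26 CPM at 3 h. In GFP libraries Cdnf had 1.7, 1.16, 0.836 and 0.913 CPM at 0 h, 2.03, 1.68, 1.56 and 1.76 CPM at 1 h and 2.4, 2.77, 3.02 and 2.89 CPM at 3 h. Every library at 3 h lay above every library of its construct at 0 h. It rose at 3 h by 1.37 ± 0.27 (adjusted p = 3.55e-04, and 1.54 ± 0.22 without replicate 1) in EIF2A cells and by 1.26 ± 0.26 (adjusted p = 7.68e-04, and 1.56 ± 0.21 without replicate 1) in GFP cells, and was the one member that rose between 1 and 3 h, in EIF2A cells, by 1.12 ± 0.26 (adjusted p = 0.00602, and 1.21 ± 0.20 without replicate 1). Manf itself ranged over 334 to 424 CPM in EIF2A libraries and 257 to 375 CPM in GFP libraries. Its changes at 3 h were -0.07 ± 0.09 (adjusted p = 0.621) in EIF2A cells and -0.12 ± 0.09 (adjusted p = 0.343) in GFP cells.

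Dnajc10 encodes a J-domain disulfide reductase that unlinks misfolded proteins before their disposal. In EIF2A libraries Dnajc10 had 244, 186, 178 and 185 CPM at 0 h, 252, 165, 153 and 150 CPM at 1 h and 192, 141, 140 and 113 CPM at 3 h. In GFP libraries Dnajc10 had 227, 196, 195 and 201 CPM at 0 h, 216, 186, 181 and 192 CPM at 1 h and 166, 151, 146 and 145 CPM at 3 h. Values in GFP cells at 3 h lay below all those at 0 and 1 h. It fell at 3 h, with -0.44 ± 0.16 (adjusted p = 0.0322, and -0.48 ± 0.07 without replicate 1) in EIF2A cells and -0.43 ± 0.16 (adjusted p = 0.0372, and -0.42 ± 0.07 without replicate 1) in GFP cells.

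Sil1 encodes a nucleotide exchange factor of BiP. In EIF2A libraries Sil1 had 62.8, 77.6, 81.5 and 84.6 CPM at 0 h, 70.6, 118, 123 and 140 CPM at 1 h and 61.8, 88.5, 93 and 110 CPM at 3 h. In GFP libraries Sil1 had 95.4, 42.2, 45.1 and 46.7 CPM at 0 h, 104, 55.2, 53.9 and 59.3 CPM at 1 h and 84.1, 47.1, 49.3 and 56.6 CPM at 3 h. Replicate 1 was the lowest library of each EIF2A group and the highest of each GFP group. No change of Sil1 was called as labelled. Without replicate 1 it was higher at 1 h by 0.65 ± 0.08 (adjusted p = 5.44e-06) in EIF2A cells and by 0.33 ± 0.09 (adjusted p = 0.0046) in GFP cells. Hyou1, the large HSP70 relative that also exchanges nucleotides on BiP, was called without replicate 1 at 1 h in GFP cells (0.32 ± 0.06, adjusted p = 2.35e-04) and, lower, at 3 h in EIF2A cells (-0.34 ± 0.06, adjusted p = 6.13e-05). Dnajb11, the main J-domain partner of BiP on new proteins, ranged over 238 to 294 CPM in EIF2A libraries and 187 to 281 CPM in GFP libraries. Without replicate 1, it was higher at 1 h by 0.22 ± 0.04 in EIF2A cells and 0.25 ± 0.04 in GFP cells. Dnajb9, a J-domain protein that holds IRE1 in check, was called without replicate 1 at 3 h in GFP cells (0.37 ± 0.08, adjusted p = 3.84e-04), while its value in EIF2A cells was 0.03 ± 0.09 (adjusted p = 0.82). Dnajc3, a J-domain partner of BiP, and Sdf2l1, a partner of Dnajb11, ranged over 53.9 to 184 and 155 to 225 CPM in EIF2A libraries and over 67 to 164 and 109 to 190 CPM in GFP libraries. Neither was called at 1 or 3 h over 0 h as labelled.

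Hsp90b1, the ER form of HSP90, was the one member that rose at both times in both constructs as labelled. In EIF2A libraries Hsp90b1 had 1522, 1512, 1461 and 1327 CPM at 0 h, 2127, 2326, 2301 and 2115 CPM at 1 h and 2209, 1920, 1892 and 1673 CPM at 3 h. In GFP libraries Hsp90b1 had 1354, 1253, 1214 and 1183 CPM at 0 h, 1914, 2106, 2029 and 2007 CPM at 1 h and 1810, 1894, 1855 and 1672 CPM at 3 h. In each construct, every library at 1 h and at 3 h lay above every library at 0 h. It rose at 1 h by 0.61 ± 0.08 (adjusted p = 7.45e-05, and 0.65 ± 0.06 without replicate 1) in EIF2A cells and by 0.69 ± 0.08 (adjusted p = 2.35e-05, and 0.75 ± 0.06 without replicate 1) in GFP cells. At 3 h it stood higher by 0.40 ± 0.08 (adjusted p = 5.77e-04, and 0.35 ± 0.06 without replicate 1) in EIF2A cells and by 0.53 ± 0.08 (adjusted p = 3.75e-05, and 0.57 ± 0.06 without replicate 1) in GFP cells. All 8 series of 1 construct and 1 replicate number showed the rise, by 0.48 to 0.76 at 1 h and by 0.33 to 0.61 at 3 h (log2 ratios). It is also the member with a pair of exact ERSE matches in the printed promoter. Near matches were not counted in any member, and a part of these elements in the rise was not tested. Another annotated gene on the opposite strand covers 10.3% of its exonic bases.

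**Figure D4:**
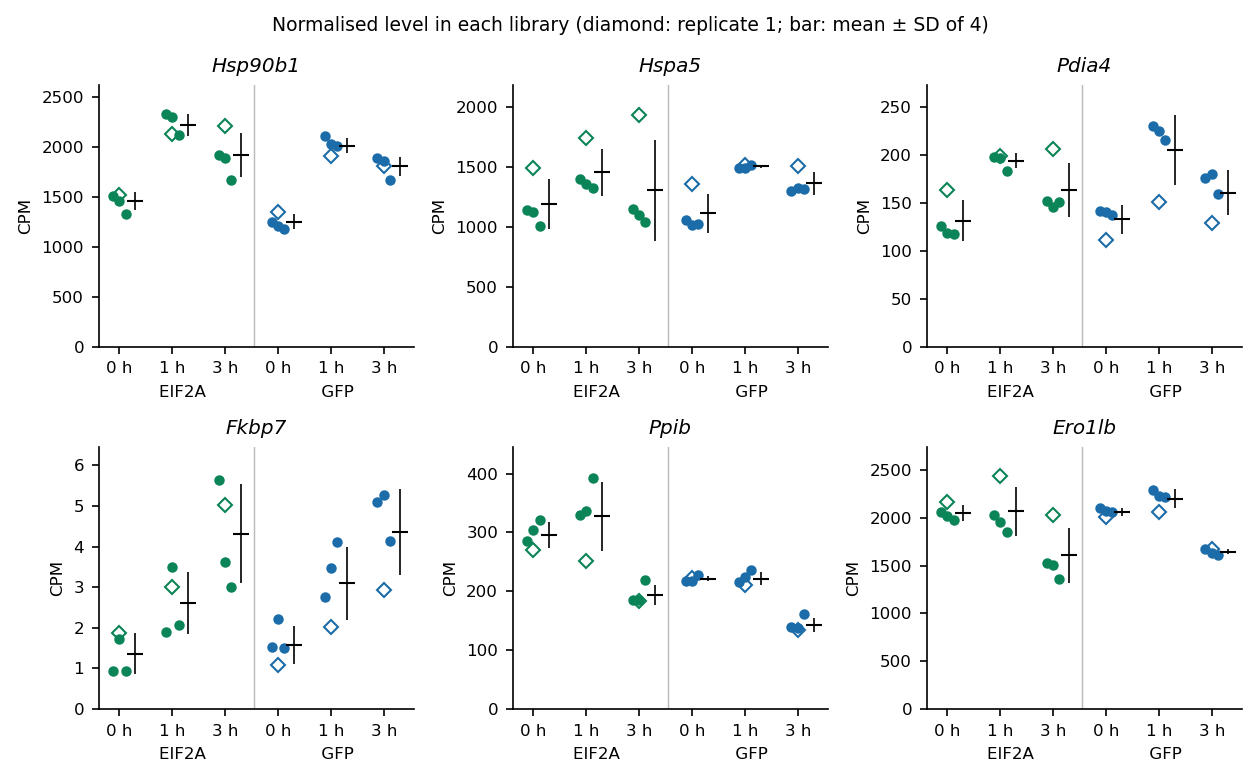
Normalised level (CPM, linear axis from 0) of 6 members in each library, EIF2A left and GFP right, at 0, 1 and 3 h. Diamonds are replicate 1, dots replicates 2 to 4, and the bar is the mean ± SD of 4 libraries; for Ppib every library at 3 h lies below every library of its construct at 0 h, from 184 to 219 CPM in EIF2A cells and 134 to 161 CPM in GFP cells.

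Of the 4 members of the calnexin cycle, edgeR called 0 at 1 or 3 h over 0 h as labelled. At an unadjusted p under 0.05 there were 2 at 3 h in EIF2A cells and 0 in the other 3 contrasts, and DESeq2 called the same numbers. Calr was called between 1 and 3 h. In EIF2A libraries Calr had 1631, 1672, 1800 and 1817 CPM at 0 h, 1664, 1863, 1926 and 2125 CPM at 1 h and 1545, 1331, 1330 and 1467 CPM at 3 h. In GFP libraries Calr had 1120, 1398, 1356 and 1371 CPM at 0 h, 1167, 1652, 1612 and 1726 CPM at 1 h and 1042, 1260, 1326 and 1349 CPM at 3 h. In EIF2A cells all 4 libraries at 3 h lay below all 4 at 1 h and at 0 h. Calr fell between 1 and 3 h in EIF2A cells, with -0.42 ± 0.12 (adjusted p = 0.0178, and -0.52 ± 0.06 without replicate 1), where GFP cells had -0.31 ± 0.12 (adjusted p = 0.101, and -0.34 ± 0.06 without replicate 1). Canx, the membrane-bound lectin, ranged over 433 to 888 CPM in EIF2A libraries and 560 to 793 CPM in GFP libraries, and its changes at 1 h were 0.10 ± 0.19 in EIF2A cells and 0.22 ± 0.19 in GFP cells. Uggt1 had -0.33 ± 0.13 in EIF2A cells and -0.22 ± 0.13 in GFP cells at 3 h, and it was called lower in both constructs without replicate 1, at -0.37 ± 0.06 (adjusted p = 8.32e-06) in EIF2A cells and -0.23 ± 0.05 (adjusted p = 9.76e-04) in GFP cells. Uggt2 ranged over 2.97 to 10.7 CPM in EIF2A libraries and 3.83 to 13.2 CPM in GFP libraries and was not called at 1 or 3 h with or without replicate 1.

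Of the 15 disulfide isomerases and thioredoxin-fold proteins, 4 rose at 1 h in EIF2A cells and 3 in GFP cells, and 0 fell in either. These are 26.7% and 20% of the 15, where 10.5% (EIF2A) and 8.18% (GFP) of all genes were called in either direction. At 3 h, 2 rose (Pdia5 and Erp44) and 5 fell in EIF2A cells, or 46.7% called against 36.2% of all genes. In GFP cells 0 rose and 2 fell, or 13.3% called against 33% of all genes. Those that rose at 1 h in both constructs were Pdia3, Pdia4 and Pdia5. Pdia3, the isomerase that works with calnexin and calreticulin, was the most abundant of the 3 per length. In EIF2A libraries Pdia3 had 823, 659, 633 and 543 CPM at 0 h, 1088, 934, 919 and 840 CPM at 1 h and 961, 728, 706 and 616 CPM at 3 h. In GFP libraries Pdia3 had 731, 615, 589 and 575 CPM at 0 h, 962, 892, 868 and 863 CPM at 1 h and 792, 710, 667 and 634 CPM at 3 h. Libraries at 1 h lay above those at 0 h without overlap in both constructs. It rose at 1 h by 0.51 ± 0.13 (adjusted p = 0.0159, and 0.55 ± 0.07 without replicate 1) in EIF2A cells and by 0.51 ± 0.13 (adjusted p = 0.0186, and 0.56 ± 0.07 without replicate 1) in GFP cells, and at 3 h it stood at 0.18 ± 0.13 in EIF2A cells and 0.16 ± 0.13 in GFP cells, neither of them called.

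Pdia4 encodes a large isomerase of the same family. In EIF2A libraries Pdia4 had 164, 126, 119 and 118 CPM at 0 h, 199, 198, 197 and 183 CPM at 1 h and 206, 152, 146 and 151 CPM at 3 h. In GFP libraries Pdia4 had 111, 142, 141 and 138 CPM at 0 h, 151, 230, 225 and 216 CPM at 1 h and 129, 176, 180 and 159 CPM at 3 h. In each construct the lowest library at 1 h lay above the highest at 0 h, and the library labelled GFP replicate 1 was the lowest of its group at all 3 times. It rose at 1 h by 0.56 ± 0.14 (adjusted p = 0.0155, and 0.67 ± 0.05 without replicate 1) in EIF2A cells and by 0.63 ± 0.14 (adjusted p = 0.00912, and 0.67 ± 0.05 without replicate 1) in GFP cells. Pdia5 encodes another isomerase of the family. In EIF2A libraries Pdia5 had 66.5, 51.1, 52.9 and 49.9 CPM at 0 h, 87.6, 85.6, 83.3 and 94.3 CPM at 1 h and 72.9, 67.3, 62.1 and 80.1 CPM at 3 h. In GFP libraries Pdia5 had 66, 47, 48.9 and 48.1 CPM at 0 h, 97.7, 72.6, 75.5 and 75 CPM at 1 h and 77.7, 53.1, 55.9 and 56 CPM at 3 h. Groups at 1 and 0 h did not overlap in either construct. It rose at 1 h by 0.67 ± 0.14 (adjusted p = 0.00308, and 0.77 ± 0.07 without replicate 1) in EIF2A cells and by 0.61 ± 0.14 (adjusted p = 0.00741, and 0.63 ± 0.07 without replicate 1) in GFP cells, and at 3 h by 0.36 ± 0.14 (adjusted p = 0.0461, and 0.44 ± 0.07 without replicate 1) in EIF2A cells, where GFP cells had 0.21 ± 0.14 (adjusted p = 0.261, and 0.20 ± 0.07 without replicate 1).

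Pdia6, an isomerase known to limit the activity of IRE1, had changes at 1 h close to those of Pdia4 but a wider spread. In EIF2A libraries Pdia6 had 974, 594, 577 and 597 CPM at 0 h, 1233, 902, 891 and 929 CPM at 1 h and 1130, 647, 636 and 669 CPM at 3 h. In GFP libraries Pdia6 had 578, 718, 725 and 709 CPM at 0 h, 709, 1117, 1111 and 1115 CPM at 1 h and 620, 837, 856 and 852 CPM at 3 h. Replicate 1 was the highest library of each EIF2A group and the lowest of each GFP group. The changes at 1 h were 0.53 ± 0.20 (adjusted p = 0.103) in EIF2A cells and 0.57 ± 0.20 (adjusted p = 0.0932) in GFP cells, and without replicate 1 they were 0.62 ± 0.04 (adjusted p = 1.20e-09) in EIF2A cells and 0.64 ± 0.04 (adjusted p = 7.81e-10) in GFP cells. P4hb, introduced above, also spread widely. In EIF2A libraries P4hb had 1904, 1194, 1255 and 1316 CPM at 0 h, 2150, 1461, 1435 and 1643 CPM at 1 h and 1907, 1039, 1027 and 1240 CPM at 3 h. In GFP libraries P4hb had 1349, 1320, 1327 and 1331 CPM at 0 h, 1611, 1753, 1755 and 1939 CPM at 1 h and 1394, 1330, 1391 and 1549 CPM at 3 h. In GFP cells the libraries at 1 h lay above those at 0 h without overlap. Its changes at 1 h were 0.24 ± 0.17 (adjusted p = 0.46) in EIF2A cells and 0.41 ± 0.17 (adjusted p = 0.179) in GFP cells, and without replicate 1 they were 0.27 ± 0.07 (adjusted p = 0.00653) in EIF2A cells and 0.45 ± 0.07 (adjusted p = 8.31e-05) in GFP cells.

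Creld2, a secreted EGF-like protein with isomerase activity and an ERSE in its promoter, rose in EIF2A cells at 1 h. In EIF2A libraries Creld2 had 166, 157, 171 and 165 CPM at 0 h, 172, 239, 245 and 243 CPM at 1 h and 185, 191, 197 and 231 CPM at 3 h. In GFP libraries Creld2 had 137, 140, 143 and 143 CPM at 0 h, 136, 184, 189 and 187 CPM at 1 h and 125, 171, 181 and 186 CPM at 3 h. Replicate 1 was the lowest library at 1 h in both constructs. The change at 1 h was 0.45 ± 0.13 (adjusted p = 0.0258, and 0.56 ± 0.06 without replicate 1) in EIF2A cells and 0.31 ± 0.13 (adjusted p = 0.157, and 0.39 ± 0.06 without replicate 1) in GFP cells, and the difference between these responses was 0.14 ± 0.18 (adjusted p = 1). Creld1, its membrane-bound relative, had 0.15 ± 0.12 in EIF2A cells and 0.08 ± 0.12 in GFP cells at 1 h. Erp44 encodes the protein that returns ERO1 oxidases and unassembled subunits from the Golgi to the ER. In EIF2A libraries Erp44 had 98.9, 58.7, 54.3 and 55.5 CPM at 0 h, 127, 84.1, 88.2 and 77.6 CPM at 1 h and 115, 84.9, 87.2 and 76 CPM at 3 h. In GFP libraries Erp44 had 81.9, 77.6, 76.1 and 76.8 CPM at 0 h, 100, 102, 104 and 105 CPM at 1 h and 94.1, 104, 91.7 and 91.2 CPM at 3 h. In GFP cells all libraries at 1 and 3 h lay above all those at 0 h. It rose at 3 h by 0.44 ± 0.17 (adjusted p = 0.0462, and 0.56 ± 0.07 without replicate 1) in EIF2A cells, where GFP cells had 0.29 ± 0.17 (adjusted p = 0.2, and 0.32 ± 0.06 without replicate 1).

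Members of this role that fell at 3 h were Txndc5, Txndc11, Txndc12, Erp29 and Tmx1. Txndc5 encodes an oxidoreductase that introduces disulfide bonds. In EIF2A libraries Txndc5 had 159, 94.7, 99.3 and 111 CPM at 0 h, 142, 75.7, 79.1 and 89.3 CPM at 1 h and 113, 56, 52.4 and 63.7 CPM at 3 h. In GFP libraries Txndc5 had 113, 134, 129 and 136 CPM at 0 h, 96.9, 113, 113 and 130 CPM at 1 h and 76.9, 88.6, 88.7 and 98.5 CPM at 3 h. In GFP cells, all libraries at 3 h lay below all those at 0 h. Txndc5 fell at 3 h in EIF2A cells, with -0.70 ± 0.22 (adjusted p = 0.0168, and -0.82 ± 0.08 without replicate 1), where GFP cells had -0.54 ± 0.22 (adjusted p = 0.0668, and -0.53 ± 0.08 without replicate 1). Txndc11 encodes a membrane-bound thioredoxin-fold protein linked to the disposal of glycoproteins. In EIF2A libraries Txndc11 had 78.8, 62.5, 65.5 and 66.6 CPM at 0 h, 71.1, 58.1, 58 and 61.7 CPM at 1 h and 66.2, 36.8, 35 and 45.8 CPM at 3 h. In GFP libraries Txndc11 had 72, 68.9, 67.4 and 71.2 CPM at 0 h, 68.3, 64.9, 67.2 and 64.5 CPM at 1 h and 51.2, 54.3, 56.4 and 59.6 CPM at 3 h. The library labelled EIF2A replicate 1 at 3 h lay among the 0 h libraries of its construct, and the other 3 lay below all of them. Txndc11 fell at 3 h in EIF2A cells, with -0.57 ± 0.14 (adjusted p = 0.00247, and -0.73 ± 0.08 without replicate 1), where GFP cells had -0.34 ± 0.14 (adjusted p = 0.0652, and -0.29 ± 0.07 without replicate 1).

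Txndc12 encodes a small lumenal oxidoreductase. In EIF2A libraries Txndc12 had 101, 105, 102 and 115 CPM at 0 h, 93.4, 97.9, 99.5 and 112 CPM at 1 h and 76.6, 76.3, 72.7 and 74.8 CPM at 3 h. In GFP libraries Txndc12 had 126, 77.8, 78.9 and 76.3 CPM at 0 h, 113, 75.6, 70.4 and 78.1 CPM at 1 h and 90.1, 52.3, 54 and 58.3 CPM at 3 h. Replicate 1 stood above the rest of each GFP group, and in EIF2A cells the 3 h libraries lay below all others. It fell at 3 h, with -0.49 ± 0.17 (adjusted p = 0.0299, and -0.52 ± 0.06 without replicate 1) in EIF2A cells and -0.49 ± 0.17 (adjusted p = 0.0323, and -0.50 ± 0.06 without replicate 1) in GFP cells. Erp29 encodes a thioredoxin-fold chaperone without the active-site cysteine pair. In EIF2A libraries Erp29 had 186, 185, 189 and 183 CPM at 0 h, 163, 201, 199 and 232 CPM at 1 h and 140, 140, 137 and 161 CPM at 3 h. In GFP libraries Erp29 had 160, 144, 146 and 152 CPM at 0 h, 145, 143, 152 and 153 CPM at 1 h and 110, 109, 111 and 123 CPM at 3 h. In each construct the 3 h libraries lay below all those at 0 and 1 h. It fell at 3 h, with -0.36 ± 0.08 (adjusted p = 0.00142, and -0.35 ± 0.07 without replicate 1) in EIF2A cells and -0.41 ± 0.08 (adjusted p = 4.76e-04, and -0.37 ± 0.07 without replicate 1) in GFP cells. Exons of the gene Naa25 on the opposite strand overlap 24.4% of the exonic bases of Erp29, and the strand setting of the counting is not stated.

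Tmx1 and Tmx3 encode thioredoxin-related proteins of the ER membrane. In EIF2A libraries Tmx1 had 315, 227, 210 and 224 CPM at 0 h, 300, 204, 197 and 188 CPM at 1 h and 252, 162, 155 and 134 CPM at 3 h. In GFP libraries Tmx1 had 266, 256, 259 and 246 CPM at 0 h, 264, 262, 258 and 267 CPM at 1 h and 213, 203, 187 and 192 CPM at 3 h. In GFP cells the libraries at 3 h lay below all those at 0 and 1 h. Tmx1 fell at 3 h in EIF2A cells, with -0.47 ± 0.16 (adjusted p = 0.0282, and -0.55 ± 0.06 without replicate 1), where GFP cells had -0.37 ± 0.16 (adjusted p = 0.0897, and -0.39 ± 0.06 without replicate 1). In EIF2A libraries Tmx3 had 62.4, 56, 40.2 and 45.9 CPM at 0 h, 59.1, 37.5, 38.9 and 29.9 CPM at 1 h and 48.1, 38.3, 35.3 and 22.6 CPM at 3 h. In GFP libraries Tmx3 had 77.1, 47.4, 46.9 and 42.4 CPM at 0 h, 68.5, 42.2, 45.2 and 42 CPM at 1 h and 53.6, 42.2, 37.4 and 34.7 CPM at 3 h. Libraries at 3 h overlapped those at 0 h in both constructs. The changes of Tmx3 at 3 h were -0.50 ± 0.25 (adjusted p = 0.119) in EIF2A cells and -0.35 ± 0.24 (adjusted p = 0.305) in GFP cells, and without replicate 1 they were -0.57 ± 0.15 (adjusted p = 0.00251) in EIF2A cells and -0.26 ± 0.14 (adjusted p = 0.115) in GFP cells. Tmx4 had -0.37 ± 0.18 in EIF2A cells and -0.14 ± 0.18 in GFP cells at 3 h.

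The oxidases re-oxidise the isomerases with molecular oxygen. Ero1lb is the form of insulin-producing and other secretory cells. In EIF2A libraries Ero1lb had 2167, 2061, 2015 and 1974 CPM at 0 h, 2438, 2027, 1958 and 1849 CPM at 1 h and 2026, 1532, 1505 and 1362 CPM at 3 h. In GFP libraries Ero1lb had 2004, 2105, 2067 and 2060 CPM at 0 h, 2056, 2294, 2232 and 2218 CPM at 1 h and 1669, 1673, 1636 and 1611 CPM at 3 h. In GFP cells the libraries at 3 h lay below all those at 0 and 1 h, and in EIF2A cells this held for all but the one labelled replicate 1. It fell at 3 h, with -0.36 ± 0.10 (adjusted p = 0.00793, and -0.46 ± 0.05 without replicate 1) in EIF2A cells and -0.32 ± 0.10 (adjusted p = 0.0166, and -0.34 ± 0.05 without replicate 1) in GFP cells, with 0.01 in EIF2A cells and 0.10 in GFP cells at 1 h. Ero1l, the widely expressed form, set replicate 1 apart from the other libraries. In EIF2A libraries Ero1l had 83.1, 28.1, 25 and 23.9 CPM at 0 h, 70.2, 24.7, 23.4 and 23.7 CPM at 1 h and 66.5, 24.7, 25 and 21.3 CPM at 3 h. In GFP libraries Ero1l had 138, 47.4, 45.9 and 45.9 CPM at 0 h, 126, 39.7, 38 and 43.2 CPM at 1 h and 95.3, 41.9, 36.8 and 38.9 CPM at 3 h. Replicate 1 was the highest library of all 6 groups, by more than the whole range of the others. No change of Ero1l was called as labelled, and without replicate 1 its change at 3 h was -0.12 ± 0.08 (adjusted p = 0.196) in EIF2A cells and -0.24 ± 0.07 (adjusted p = 0.00548) in GFP cells.

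Among the 7 prolyl isomerases, edgeR called 0 at 1 h. At an unadjusted p under 0.05 there was 1 in each construct, and DESeq2 called 0 in EIF2A cells and 1 in GFP cells. By edgeR, at 3 h 1 rose and 2 fell in each construct, or 42.9% of the 7, where 36.2% (EIF2A) and 33% (GFP) of all genes were called. Fkbp7, which binds BiP and was near the bottom of the levels, rose most of all members. In EIF2A libraries Fkbp7 had 1.87, 0.933, 1.72 and 0.928 CPM at 0 h, 3, 1.89, 3.5 and 2.07 CPM at 1 h and 5.02, 5.63, 3.63 and 3 CPM at 3 h. In GFP libraries Fkbp7 had 1.09, 1.52, 2.21 and 1.5 CPM at 0 h, 2.03, 2.76, 3.48 and 4.12 CPM at 1 h and 2.94, 5.09, 5.26 and 4.14 CPM at 3 h. These values rest on 9 to 110 counts per library, and 3 h and 0 h libraries did not overlap in either construct. It rose at 3 h by 1.65 ± 0.32 (adjusted p = 3.10e-04, and 1.79 ± 0.33 without replicate 1) in EIF2A cells and by 1.46 ± 0.31 (adjusted p = 8.73e-04, and 1.46 ± 0.25 without replicate 1) in GFP cells, after 0.93 ± 0.32 (adjusted p = 0.0649, and 1.06 ± 0.37 without replicate 1) in EIF2A cells and 0.96 ± 0.31 (adjusted p = 0.0555, and 0.99 ± 0.26 without replicate 1) in GFP cells at 1 h.

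Ppib, cyclophilin B, had the largest fall among the members called in GFP cells, and in EIF2A cells that of Txndc5 was larger. In EIF2A libraries Ppib had 271, 286, 304 and 322 CPM at 0 h, 251, 330, 336 and 392 CPM at 1 h and 184, 185, 185 and 219 CPM at 3 h. In GFP libraries Ppib had 222, 218, 218 and 227 CPM at 0 h, 211, 215, 225 and 236 CPM at 1 h and 134, 139, 138 and 161 CPM at 3 h. Its 3 h libraries lay below all 0 h and 1 h libraries of the construct. It fell at 3 h, with -0.61 ± 0.10 (adjusted p = 6.85e-05, and -0.63 ± 0.08 without replicate 1) in EIF2A cells and -0.63 ± 0.10 (adjusted p = 5.81e-05, and -0.60 ± 0.08 without replicate 1) in GFP cells, and the log2 ratio was -0.74 to -0.50 over the 8 series. Exons of Snx22 on the opposite strand overlap 25% of the exonic bases of Ppib. Fkbp2 encodes a small lumenal FK506-binding isomerase. In EIF2A libraries Fkbp2 had 313, 296, 327 and 305 CPM at 0 h, 292, 364, 356 and 372 CPM at 1 h and 246, 245, 250 and 262 CPM at 3 h. In GFP libraries Fkbp2 had 214, 292, 274 and 275 CPM at 0 h, 197, 261, 261 and 242 CPM at 1 h and 153, 190, 208 and 204 CPM at 3 h. Groups at 3 and 0 h did not overlap in either construct. It fell at 3 h, with -0.31 ± 0.11 (adjusted p = 0.0336, and -0.30 ± 0.05 without replicate 1) in EIF2A cells and -0.48 ± 0.11 (adjusted p = 0.00175, and -0.48 ± 0.05 without replicate 1) in GFP cells.

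Fkbp11, an isomerase of secretory cells with a UPRE core in its promoter window, was not called at 1 or 3 h as labelled. In EIF2A libraries Fkbp11 had 37.7, 20.7, 23.1 and 21.6 CPM at 0 h, 37.4, 27.1, 26.2 and 30.7 CPM at 1 h and 32.1, 19.5, 17.3 and 21.3 CPM at 3 h. In GFP libraries Fkbp11 had 14.8, 28.6, 29.1 and 26.2 CPM at 0 h, 13.7, 28.7, 35.3 and 29.3 CPM at 1 h and 11, 25.5, 26.1 and 28.3 CPM at 3 h. Replicate 1 was the highest library of each EIF2A group and the lowest of each GFP group. Its change at 1 h without replicate 1 was 0.37 ± 0.10 (adjusted p = 0.0053) in EIF2A cells and 0.15 ± 0.09 (adjusted p = 0.179) in GFP cells. Ppic, Fkbp10 and Fkbp14, of which Fkbp10 and Fkbp14 are known for collagen folding, ranged over 2.17 to 6.36, 0.24 to 1.08 and 9.66 to 19.5 CPM in EIF2A libraries and over 1.86 to 3.83, 0.379 to 0.967 and 9.53 to 21.5 CPM in GFP libraries. None of the 3 was called at 1 or 3 h over 0 h by edgeR, as labelled or without replicate 1.

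Most members stood lower at 3 h than at 1 h, and few of these differences passed the test. Between 1 and 3 h, 1 member rose and 6 fell in EIF2A cells, where 8.28% of all genes rose and 6.62% fell. In GFP cells 0 rose and 3 fell, where 5.49% of all genes rose and 4.28% fell. Those that fell in both were Ppib, Erp29 and Ero1lb, and Fkbp2, Calr and Txndc11 fell in EIF2A cells. Ppib fell with -0.76 ± 0.10 (adjusted p = 6.34e-05, and -0.84 ± 0.08 without replicate 1) in EIF2A cells and -0.63 ± 0.10 (adjusted p = 4.85e-04, and -0.63 ± 0.08 without replicate 1) in GFP cells. In each construct 35 of the 40 members had a negative value, with medians of -0.29 for EIF2A and -0.22 for GFP, against 0.01 for all genes in both. With library totals, 1 member rose and 2 fell in EIF2A cells (18.9% and 2.54% of all genes), and the members' median was -0.15 for EIF2A and -0.11 for GFP, against 0.17 and 0.11 for all genes. Without replicate 1, 2 members were higher and 28 lower in EIF2A cells (25.5% and 23.6% of all genes), and 3 higher and 23 lower in GFP cells (21% and 21.3% of all genes). The block called 32 members in EIF2A cells and 30 in GFP cells, where 52.7% and 49.7% of all genes were called. The 3 times of a construct share their libraries between these comparisons, so the 1 h and 3 h values of a gene are not independent.

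EIF2A and GFP cells were then compared at the same time point, as labelled and without replicate 1. As labelled, edgeR called 0 of 40 members at 0 h and 0 at 3 h. At an unadjusted p under 0.05 there were 6 at each of these times, and DESeq2 called 3 at each. The shares of all genes are not given for these counts, so nothing is read from them about the members. At 1 h, 3 members were higher in EIF2A cells and 0 lower, where 0.69% of all genes were higher. They were Ppib, Erp29 and Fkbp2. Ppib was higher by 0.56 ± 0.10 (adjusted p = 0.0306, and 0.65 ± 0.08 without replicate 1), Erp29 by 0.42 ± 0.08 (adjusted p = 0.0353, and 0.50 ± 0.07 without replicate 1) and Fkbp2 by 0.53 ± 0.11 (adjusted p = 0.0419, and 0.52 ± 0.05 without replicate 1) at 1 h. With no filter on low counts none of the 3 was called, and leaving out 1 library gave between 0 and 11 members called at 1 h. The EIF2A and GFP libraries of each of the 3 genes did not overlap at 0, 1 or 3 h, replicate 1 included. The share of all genes that do so was not counted. The 3 genes were chosen by their call at 1 h in the same libraries, so the lack of overlap adds no support to it. In replicate 1, where Eif2a was lower in the library labelled EIF2A, the 3 genes were higher in that library at all 3 times. The 3 genes were called with replicate 1 included, which favours genes that keep their sign there, so nothing is read from this. For Ppib the log2 ratio within a replicate number was 0.25 in replicate 1 and 0.58 to 0.73 in replicates 2 to 4 at 1 h. At 0 h the differences were 0.42 ± 0.10, 0.30 ± 0.08 and 0.23 ± 0.11 for Ppib, Erp29 and Fkbp2. With a trend on exonic length removed and replicate 1 left out, Fkbp2 was -0.12 at 0 h, so its direction there depends on that choice.

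Without replicate 1, most members differed between constructs, as most genes did. At 0 h, 10 members were higher and 13 lower in EIF2A cells (31.9% and 32.9% of all genes). At 1 h, 11 were higher and 17 lower (32.7% and 37.3% of all genes). At 3 h, 10 were higher and 19 lower (32.5% and 35.1% of all genes). These shares are of the order of those of all genes, and nothing is read from them about the members. As examples at 0 h, Uggt2 (-1.46 ± 0.17, adjusted p = 5.14e-07), Dnajc3 (-0.91 ± 0.07, adjusted p = 1.08e-09) and Fkbp14 (-0.66 ± 0.12, adjusted p = 7.74e-05) were lower in EIF2A cells. Sil1 (0.86 ± 0.09, adjusted p = 6.27e-08) was higher in EIF2A cells. At 1 h Dnajb9 stood at -1.16 ± 0.08 (adjusted p = 3.59e-10). In replicate 1 each of these turned the other way. The log2 ratio of the library labelled EIF2A to the one labelled GFP at 0 h was 1.06 for Uggt2, 1.05 for Dnajc3, 0.72 for Fkbp14 and -0.60 for Sil1, and at 1 h it was 0.28 for Dnajb9. Over all members, 32, 35 and 32 had the same sign in replicates 2 to 4 at 0, 1 and 3 h, and replicate 1 had the opposite sign in 22, 22 and 23 of them. These signs were not counted over all genes, so the counts are not read as particular to the members. Ero1l was among the members that did not turn, as were Calr, Creld2 and Ppib at 0 h. Ero1l was lower in the library labelled EIF2A in every replicate number, at log2 ratios of -0.73 in replicate 1 and -0.94 to -0.75 in the others at 0 h. Its difference without replicate 1 was -0.85 ± 0.08 (adjusted p = 1.59e-08). Reads outside genes were 12.04 to 17.88% in EIF2A libraries at 0 h and 11.83 to 12.99% in GFP libraries, and their part in these differences was not tested.

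**Figure D5:**
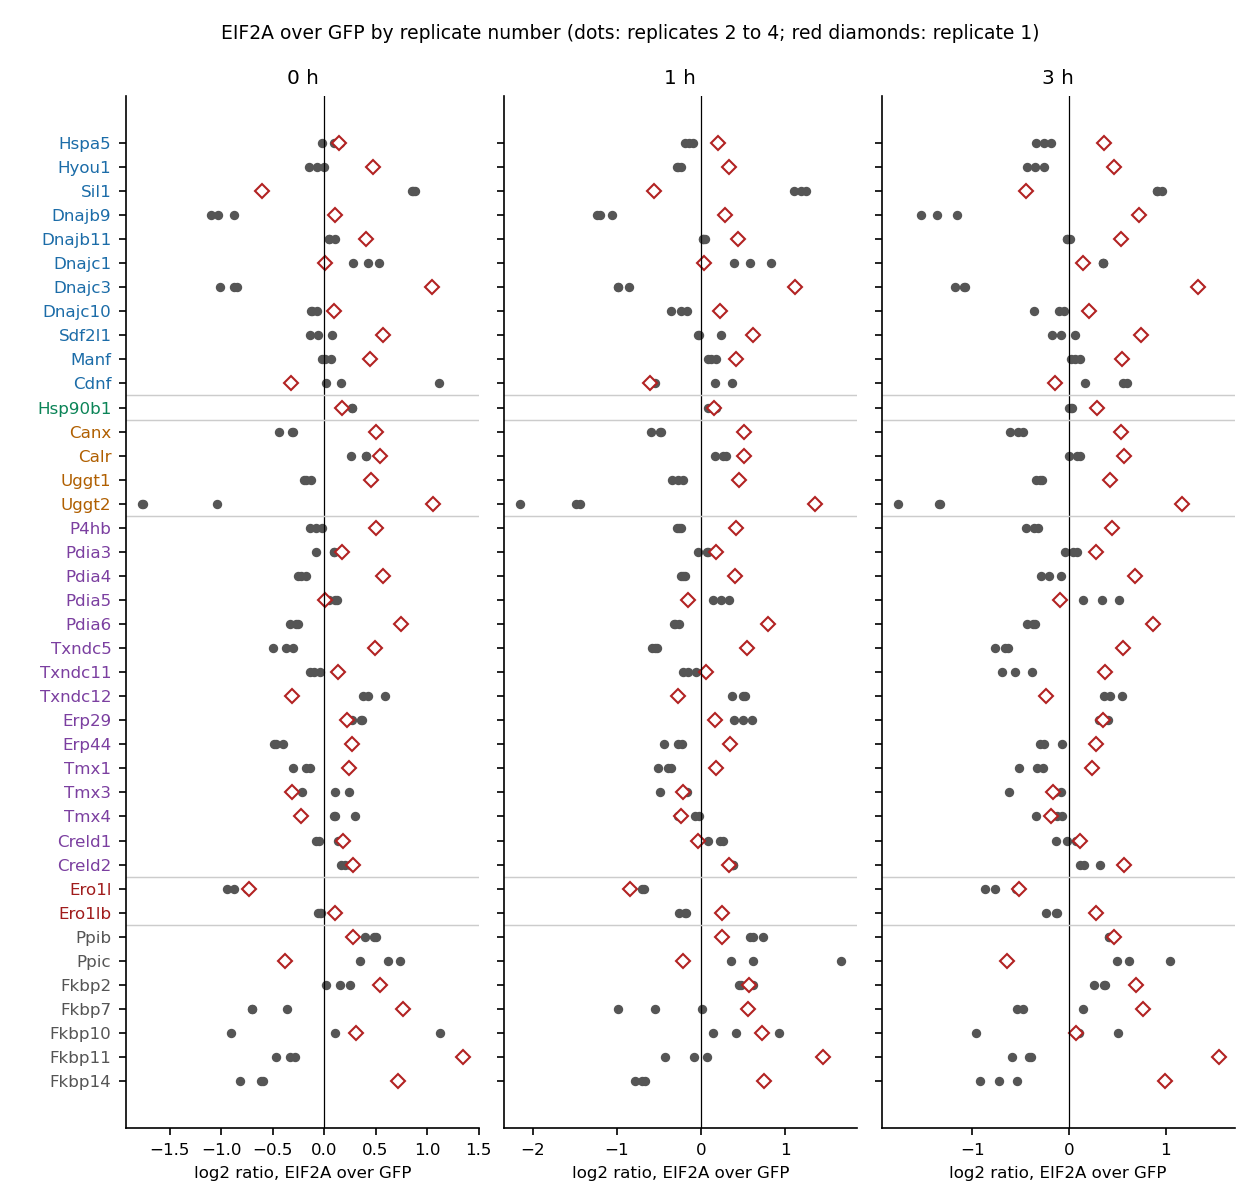
Log2 ratio of the EIF2A to the GFP library of the same replicate number for the 40 members at 0, 1 and 3 h. Grey dots are replicates 2 to 4 and red diamonds replicate 1, which has the opposite sign to the dots in 22 of 32, 22 of 35 and 23 of 32 members with the same sign in replicates 2 to 4. These signs were not counted over all genes.

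The design also asks whether EIF2A changes the answer to thapsigargin, which the interaction tests as the response in EIF2A cells minus that in GFP cells. As labelled, edgeR called 0 of 40 members at 1 h and 0 at 3 h, with 0 at an unadjusted p under 0.05 and 0 by DESeq2 at each time. The shares of all genes are not given for these counts either. Without replicate 1, 1 member was called at 1 h, where 0.816% of all genes were called. It was Fkbp2, at 0.38 ± 0.07 (adjusted p = 0.0229), with responses of 0.24 ± 0.05 in EIF2A cells and -0.14 ± 0.05 in GFP cells. At 3 h, 3 members were called, where 4.12% of all genes were. Hspa5 stood at -0.34 ± 0.07 (adjusted p = 0.00934), with responses of 0.01 ± 0.05 in EIF2A cells and 0.35 ± 0.05 in GFP cells. Calr stood at -0.29 ± 0.08 (adjusted p = 0.0465), with -0.36 ± 0.06 in EIF2A cells and -0.07 ± 0.06 in GFP cells. Txndc11 stood at -0.44 ± 0.10 (adjusted p = 0.0213), with -0.73 ± 0.08 in EIF2A cells and -0.29 ± 0.07 in GFP cells. With the replicate block over all libraries none of the 4 was called. In replicate 1 the log2 ratio of Hspa5 at 3 h over 0 h was 0.38 in the series labelled EIF2A and 0.15 in the series labelled GFP, and in replicates 2 to 4 it was -0.03 to 0.04 in EIF2A cells and 0.30 to 0.38 in GFP cells.

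The wider pathway was followed through a list of 50 gene symbols outside the members. It covers the sensors and transcription factors of the response, ER-associated degradation, translocation and glycosylation. Of these symbols, 48 were in the count table, and all 48 passed the filter. At 1 h, 9 rose and 2 fell in EIF2A cells, and 9 rose and 3 fell in GFP cells. At 3 h, 8 rose and 15 fell in EIF2A cells, and 9 rose and 13 fell in GFP cells. Their medians at 3 h were -0.12 for EIF2A and -0.06 for GFP. In either direction, the calls at 1 h were 22.9% of the 48 in EIF2A cells and 25% in GFP cells, against 10.5% and 8.18% of all genes. At 3 h they were 47.9% in EIF2A cells and 45.8% in GFP cells, against 36.2% and 33% of all genes. Without replicate 1, 18 were higher and 21 lower at 1 h in EIF2A cells, and 16 higher and 12 lower in GFP cells, or 81.2% and 58.3% called against 42% and 39.4% of all genes. At 3 h without it, 16 were higher and 25 lower in EIF2A cells, and 18 higher and 21 lower in GFP cells, or 85.4% and 81.2% called against 62.6% and 63% of all genes. In the interaction without replicate 1, 0 were higher and 2 lower at 1 h (4.17% called against 0.816% of all genes), and 1 higher and 8 lower at 3 h (18.8% against 4.12%). Herpud1, an ER membrane protein of the degradation machinery, rose at 3 h by 1.39 ± 0.15 (adjusted p = 3.09e-07) in EIF2A cells and by 1.46 ± 0.15 (adjusted p = 1.97e-07) in GFP cells. Ddit3, the transcription factor CHOP, rose at 3 h by 1.70 ± 0.28 (adjusted p = 5.11e-05) in EIF2A cells and by 2.03 ± 0.28 (adjusted p = 9.44e-06) in GFP cells. Atf4, its upstream activator, rose by 0.65 ± 0.10 (adjusted p = 3.66e-05) in EIF2A cells and by 0.81 ± 0.10 (adjusted p = 3.71e-06) in GFP cells, and Xbp1, the substrate of IRE1, by 0.66 ± 0.15 (adjusted p = 0.00186) in EIF2A cells and by 0.71 ± 0.15 (adjusted p = 0.0012) in GFP cells. Edem1, a mannose-trimming degradation factor, fell at 3 h, with -0.76 ± 0.18 (adjusted p = 0.00204) in EIF2A cells and -0.79 ± 0.18 (adjusted p = 0.00167) in GFP cells. Sdf2, the relative of the member Sdf2l1, fell at 3 h, with -0.72 ± 0.10 (adjusted p = 1.39e-05) in EIF2A cells and -0.71 ± 0.10 (adjusted p = 1.94e-05) in GFP cells, where Sdf2l1 had -0.08 ± 0.16 in EIF2A cells and -0.10 ± 0.16 in GFP cells. Serp1, which stabilises new membrane proteins, had -0.15 ± 0.22 in EIF2A cells and -0.03 ± 0.22 in GFP cells and was not called.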

How the data were processed

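Counts of polyadenylated RNA from 24 libraries were used, 4 in each of 6 groups. Groups and replicate numbers came from the sample titles, and columns were matched through the names in the sample descriptions. The authors deposited a raw count for each gene and library, in whole numbers and not normalized. Per the submitters' processing notes, bcl2fastq, STAR and the build mm10 were used. The sources used here name no counting program, strand setting or annotation. The library kit was a stranded mRNA kit, per the labels. The 2 lines that name no gene were left out (unassigned reads, 10.73 to 17.88% of counted reads, and ambiguous ones).

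The test was that of edgeR 4.0.16 under R 4.3.3, with TMM scaling, the filter on low counts at its defaults (minimum count 10, minimum total 15), robust dispersions and a quasi-likelihood fit of 6 group means (18 residual degrees of freedom). Each contrast was adjusted over all 13761 genes. The procedure was tested on simulated data. DESeq2 1.42.0, RLE size factors, library totals, no filter, a replicate block, leaving out each library, leaving out replicate 1, and removing a length trend (loess, span 0.5) were the alternatives. GENCODE M21 gave transcript lengths and exons on GRCm38, which is mm10. Promoter sequences came from RefSeq on GRCm38.p6. The members and the gene lists were chosen with earlier results of these data known. Every member could be named, and values in every library are given for members called over all libraries, or called both without replicate 1 and with the block at an absolute log2 fold change of at least 0.4, and for Hspa5. The labels do not say whether replicates are separate cultures, so p-values measure the spread between these libraries, which may be technical. A level of 1 CPM is 10.52 counts at the lowest depth, and without molecular identifiers the counting error is the least that applies.

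Pairing was checked by the correlation, across genes, of deviations from the group mean between libraries of a construct with the same replicate number. It was 0.51 to 0.933 over 24 pairs, each over 0.1, the limit above which numbers were taken as paired. Between constructs it was -0.663 to -0.159 over 36 pairs. Without replicate 1 it was -0.026 to 0.312 (median 0.086, 18 pairs) within a construct and -0.068 to 0.313 (median 0.058, 27 pairs) between constructs, so both the pairing and its limitation to libraries of a construct rest on replicate 1.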

Additional observations from a re-analysis of the deposited data

Results flagged for a closer look

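In groups of 4 libraries, 1 library stood far from the other 3 in 64 of the 240 combinations of member and group. For independent values chance gives about 1 in 20, but all members share the same 24 libraries. The share over all genes was not counted, so nothing is read from these counts about the members. In 59 of the 64 that library was replicate 1, and 26 of the 40 members were affected. Pdia6 and Ero1l showed it in 6 of 6 groups. Hspa5, Dnajc3 and Pdia4 showed it in 4 groups, and Dnajb9, Sdf2l1 and Pdia5 in 3. Sil1, Dnajb11, Dnajc10, Manf, Canx, Uggt2, Txndc12, Erp29, Tmx1, Tmx3, Tmx4, Creld2 and Fkbp11 showed it in 2 groups. Hyou1, Calr, Uggt1, Erp44 and Ppib showed it in 1 group.

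Without replicate 1, the response to thapsigargin differed between constructs for 4 members by the interaction test. The response of EIF2A cells minus that of GFP cells was 0.38 for Fkbp2 at 1 h, -0.34 for Hspa5, -0.29 for Calr and -0.44 for Txndc11 at 3 h (log2). As labelled, with all 24 libraries, the same differences were 0.30 ± 0.16 (adjusted p = 1) for Fkbp2, -0.16 ± 0.23 (adjusted p = 1) for Hspa5, -0.21 ± 0.16 (adjusted p = 1) for Calr and -0.24 ± 0.19 (adjusted p = 1) for Txndc11.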

How the results depend on the processing

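Over the 11 contrasts 47 member calls were made, and each alternative was run on all 40 members. RLE size factors kept 45 of the 47 calls, DESeq2 46, no filter 40 and library totals 32. The replicate block, leaving out replicate 1, and leaving it out with a length trend removed each kept 47. Leaving out 1 library at a time kept 35 to 46, the fewest without EIF2A at 3 h replicate 2 or 3. The replicate block changed the number of members called to 22, 30 and 32 in EIF2A cells (1 over 0 h, 3 over 0 h, 3 over 1 h) from 5, 15 and 7, and to 20, 27 and 30 in GFP cells from 4, 10 and 3. With replicate number as the block between constructs, where same-numbered libraries correlated at -0.663 to -0.159 with replicate 1 and at -0.068 to 0.313 without it, 5, 7 and 4 members were called at 0, 1 and 3 h. In the same order, leaving out replicate 1 with the length trend removed gave 25, 28 and 29 in EIF2A cells, 20, 28 and 29 in GFP cells, 23, 26 and 25 between constructs, and 1 and 4 for the interactions. Library totals gave 3 in EIF2A cells at 3 over 1 h. No filter gave 0 between constructs at 1 h. DESeq2 gave 8 in GFP cells at 3 over 1 h and 3, 5 and 3 between constructs. The cause of these shifts was not tested. Shares of all genes are not given beside these counts, so nothing is read from them about the members.

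When 1 library, or replicate 1 in all groups, was left out, the counts ran over 2 to 26, 8 to 26 and 4 to 30 in EIF2A cells, 3 to 19, 8 to 24 and 3 to 26 in GFP cells, 0 to 23, 0 to 28 and 0 to 29 between constructs, and 0 to 1 and 0 to 3 for the interactions. Single libraries moved a count by more than 1.5 times as follows. For EIF2A at 1 over 0 h it was 8 without EIF2A 0 h replicate 1, 3 without its replicate 3 and 2 without its replicate 4. For EIF2A at 3 over 0 h it was 8 without EIF2A 3 h replicate 2 or 3. For EIF2A at 3 over 1 h it was 18 without EIF2A 3 h replicate 1 and 4 without its replicate 2 or 3. For GFP at 1 over 0 h it was 8 without GFP 1 h replicate 1. For GFP at 3 over 1 h it was 7 without EIF2A 3 h replicate 1, 6 without GFP 1 h replicate 1 and 5 without GFP 0 h or 3 h replicate 1. Between constructs at 0 h it was 4 without EIF2A 0 h replicate 1 and 3 without EIF2A 1 h replicate 1, and at 3 h 9 without EIF2A 3 h replicate 1 and 2 without EIF2A 1 h replicate 1. Between constructs at 1 h it was 11 without EIF2A 1 h replicate 1. It was 0 without any 1 of replicates 2 to 4 of EIF2A or GFP at 1 h, GFP 0 h replicate 2 or GFP 3 h replicate 3, and 1 without EIF2A 0 h replicate 2, EIF2A 3 h replicate 2 or 3, GFP 0 h replicate 3 or 4 or GFP 3 h replicate 2.

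Some values that were not called as labelled were called with the opposite sign, and the cause was not tested. EIF2A against GFP was -0.20 without replicate 1 for Pdia4 at 3 h (up to 0.08 without another library), -0.28 for Pdia6 at 0 h (up to 0.08) and -0.37 for Fkbp11 at 0 h (up to 0.16). With the length trend also removed, it was -0.41, -0.40 and -0.44 for Sdf2l1 at 0, 1 and 3 h, -0.18 for P4hb at 0 h, -0.35 for Pdia4 at 3 h, -0.31 for Pdia6 at 0 h, 0.16 for Tmx4 at 1 h, -0.11 for Creld2 at 3 h, -0.12 for Fkbp2 at 0 h and -0.48 and -0.30 for Fkbp11 at 0 and 1 h. Sdf2l1 at 3 over 0 h was then 0.15 in EIF2A cells and 0.18 in GFP cells. At this depth, Cdnf, Fkbp7, Fkbp10 and Ppic rest on 4 to 110 counts per library, and changes of their size in either direction may go uncalled.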
